A study of Solanum lycopersicum var. cerasiforme with 6 samples.

Results

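The cuticle genes described here are CD1, CER6, GPAT6, MIXTA-like and SHN3 of tomato, chosen by their locus identifiers as 5 genes with published roles in building the plant surface. Of these 5, 4 have a row among the 34081 gene rows of the count tables, and SHN3 was not analysed here. All 4 passed the filter on low counts, which left 20942 rows, called genes below. RNA was sequenced from young inflorescences of F3 progenies of cherry tomato (Solanum lycopersicum var. cerasiforme) in which fw2.3 segregated, a trait locus for the weight of the fruit that is named for chromosome 2. The derived allele, called fw2.3-D, was carried by 3 pools, and fw2.3-WT, the wild-type allele, by 3 pools. Each pool joined RNA of 2 plants with the same genotype in equal parts, and the largest floral bud was under 2 mm long. Plants of both genotypes grew unpruned and in random order in one greenhouse; the labels used here name neither the parents nor any treatment. The labels describe the pools as separate pairs of plants, so the spread between them includes that between plants.

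The cuticle is a sheet of cutin, a polyester of hydroxylated fatty acids, that is filled and covered with waxes. The epidermis makes it, and it limits water loss and keeps organs that grow against each other from fusing. GPAT6, an acyltransferase, joins the fatty acids to glycerol, and CD1, a cutin synthase of the GDSL family secreted to the cell wall, links these units into the polymer. CER6, a ketoacyl-CoA synthase, lengthens fatty acids for wax. MIXTA-like is a MYB transcription factor that in tomato fruit promotes the shape of epidermal cells and the cuticle over them. SHN3 belongs to the SHINE transcription factors, which activate cutin genes. The count tables hold identifiers without names, so the names rest on published assignments. A RefSeq gene table of the assembly SLM_r2.1 matched 0 of the 34081 identifiers, but it lists CD1, CER6, GPAT6 and SHN3 on chromosomes 11, 2, 9 and 6, the same chromosomes that their identifiers give.

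The pools held 25859530, 28504360 and 25094534 counts in pools with fw2.3-D and 24570493, 22303511 and 23945933 counts in pools with fw2.3-WT. The tissue label was checked with 8 genes of inflorescence and flower identity, all of which were present at mean levels of 1.86 to 99.7 RPKM (reads per gene, scaled to its length and to the library total). The 2 anther markers had at most 8 counts in any pool, and their summed level was 0 to 0.571 RPKM in pools with fw2.3-D and 0 to 0.373 RPKM in pools with fw2.3-WT. The 3 trichome markers, a further epidermal cell type, summed to 40.6 to 53.1 RPKM in pools with fw2.3-D. In pools with fw2.3-WT they summed to 50.5 to 55.8 RPKM. One of the 3, Solyc10g078970.1, had only 0.0659 to 0.568 RPKM and did not pass the filter.

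The cuticle genes stood at different levels, in an order that no pool broke. Only RPKM is used to compare genes, since it is scaled to gene length. CD1, the cutin synthase, was the most abundant, at 206 ± 17.96 RPKM in pools with fw2.3-D and 221 ± 47.6 RPKM in pools with fw2.3-WT (SD, n = 3 each). Its mean over the 6 pools lay above 97.5% of tested genes. CER6, the wax enzyme, came next, at 42.5 ± 3.19 RPKM in pools with fw2.3-D and 52.7 ± 7.18 RPKM in pools with fw2.3-WT, above 85.7% of tested genes. GPAT6 followed at 31.6 ± 0.599 RPKM in pools with fw2.3-D and 38.9 ± 2.13 RPKM in pools with fw2.3-WT, above 79.9%. The regulator MIXTA-like was the least abundant of the 4, at 13.0 ± 1.53 RPKM in pools with fw2.3-D and 15.3 ± 1.17 RPKM in pools with fw2.3-WT. That is near the median of tested genes, 13.1 RPKM.

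The ranges of CER6 and GPAT6 met across pools, because the lowest CER6 value, 40.3 RPKM, was below the highest GPAT6 value, 41.1 RPKM. Within each pool CER6 was nevertheless above GPAT6, in 6 of 6 pools. The ratio of CER6 to GPAT6 was 1.49, 1.28 and 1.26 in the 3 pools with fw2.3-D and 1.48, 1.29 and 1.29 in the 3 pools with fw2.3-WT. These ratios do not depend on the scaling between pools, and they averaged 1.35 ± 0.127 in pools with fw2.3-D and 1.35 ± 0.112 in pools with fw2.3-WT (SD, n = 3 each). The ratio of the wax enzyme to the cutin precursor enzyme overlapped between the genotypes and was highest in replicate 1 of each. The ratio of the cutin synthase CD1 to GPAT6 was 5.997 to 6.86 in pools with fw2.3-D and 4.34 to 6.38 in pools with fw2.3-WT.

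**Figure D1:**
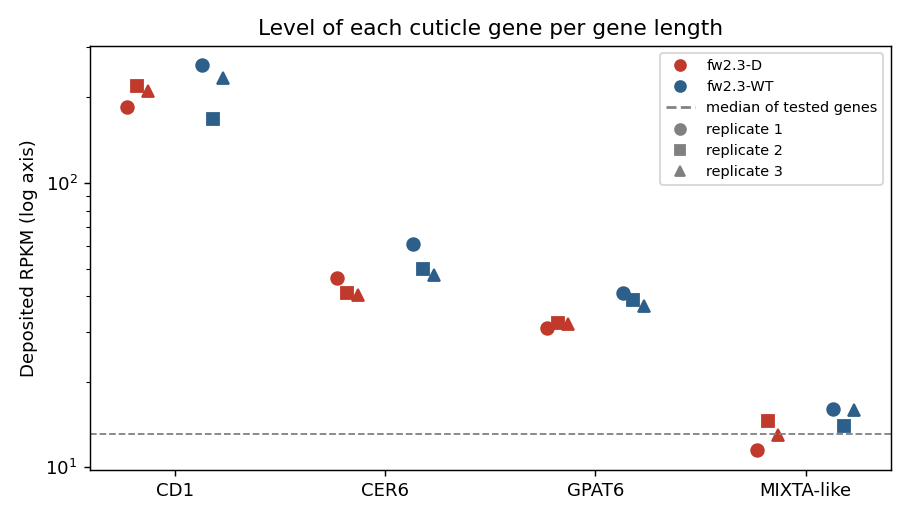
Deposited RPKM of the 4 cuticle genes on a log axis, 1 point per pool, with fw2.3-D left of fw2.3-WT and symbols for the replicates; the dashed line is the median of tested genes, 13.1 RPKM. CD1 lies above the other genes in every pool, CER6 and GPAT6 have neighbouring ranges, and MIXTA-like lies around the median.

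The comparison of fw2.3-D with fw2.3-WT asked whether the allele at the fruit weight locus goes with a different level of these transcripts. No cuticle gene passed the test: 0 of the 4 were called by edgeR at an adjusted p under 0.05, where 0.0239% of all tested genes were called. DESeq2 called 0 of the 4, against 0.229% of all genes, and limma on log2(RPKM + 1) called 0 of the 4, against 0% of the 20936 genes it tested. At an unadjusted p under 0.05 edgeR gave 1 of the 4, GPAT6, against 3.56% of all tested genes. Over the 17 alternatives described below, GPAT6 was under 0.05 in 12, CER6 in 7, and CD1 and MIXTA-like in 0. All 4 fold changes were below 0, where 49.8% of tested genes were, although for CD1 this depended on 1 pool. The levels that follow are CPM, counts scaled to library size with TMM factors. The tissue holds more than epidermis, so fewer epidermal cells and less RNA per cell cannot be told apart.

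GPAT6 (Solyc09g014350.3), which makes the building blocks of cutin, had 60.8, 60.4 and 60.2 CPM in the fw2.3-D pools. It had 79.2, 73.1 and 67.6 CPM in the fw2.3-WT pools. The genotypes did not overlap, which held for 9.49% of all tested genes in either direction and for 4.34% in this direction. The mean was 60.5 ± 0.317 CPM in pools with fw2.3-D and 73.3 ± 5.81 CPM in pools with fw2.3-WT (SD, n = 3 each). The log2 fold change was -0.28 (SE 0.108, 95% interval -0.52 to -0.04), a fitted change of -17.5%, with an edgeR unadjusted p of 0.0286. After adjustment over the whole table it was not called (edgeR adjusted p = 0.948), and 373 genes had a smaller p. By CPM, the coefficient of variation of the 3 fw2.3-D pools was 0.523%, below the counting error at the mean depth of this gene, 2.45%. The deposited RPKM of the same pools spread relatively more, from 30.9 to 32.1 RPKM. Whether 3 pools can fall this close together by counting alone was not tested. In fw2.3-WT the coefficient of variation was 7.93%. Without fw2.3-WT replicate 1, the highest pool, the log2 fold change was -0.22 (edgeR unadjusted p = 0.123, adjusted p = 0.778). The adjusted p depends on the p of all genes in each fit, so it can fall while the gene's own p rises.

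CER6 (Solyc02g085870.3), the wax enzyme, had 105, 89.8 and 88.2 CPM in the fw2.3-D pools. It had 136, 109 and 101 CPM in the fw2.3-WT pools. Replicate 1 was the highest pool in each genotype, and fw2.3-D replicate 1 lay above fw2.3-WT replicate 3, so the genotypes overlapped by these values. In the deposited RPKM, which carry no TMM factors, they did not overlap: the highest fw2.3-D pool had 46.2 RPKM and the lowest fw2.3-WT pool had 47.5 RPKM. The mean was 94.4 ± 9.39 CPM in pools with fw2.3-D and 115 ± 18.4 CPM in pools with fw2.3-WT (SD, n = 3 each). The log2 fold change was -0.29 (SE 0.142, 95% interval -0.61 to 0.03) with an edgeR adjusted p of 0.948. Without fw2.3-WT replicate 1 it was -0.15, and the edgeR unadjusted p went from 0.0691 to 0.311 (edgeR adjusted p = 0.828).

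MIXTA-like (Solyc02g088190.4), the regulator, had 18.3, 22.2 and 20.0 CPM in the fw2.3-D pools. It had 25.02, 21.4 and 23.7 CPM in the fw2.3-WT pools. The genotypes overlapped, since fw2.3-D replicate 2 stood above fw2.3-WT replicate 2. The mean was 20.2 ± 1.96 CPM in pools with fw2.3-D and 23.4 ± 1.84 CPM in pools with fw2.3-WT (SD, n = 3 each). The log2 fold change was -0.21 (SE 0.132, 95% interval -0.51 to 0.08), with an edgeR adjusted p of 0.948. With 457 to 638 counts per pool, counting alone adds an error of 4.28%.

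CD1 (Solyc11g006250.2), the cutin synthase, had 276, 314 and 302 CPM in the fw2.3-D pools. It had 379, 240.3 and 327 CPM in the fw2.3-WT pools. The fw2.3-WT pools lay on both sides of all fw2.3-D pools, so there was no separation by genotype. The mean was 298 ± 19.4 CPM in pools with fw2.3-D and 315 ± 70.2 CPM in pools with fw2.3-WT (SD, n = 3 each). The coefficient of variation was 6.51% in pools with fw2.3-D and 22.3% in pools with fw2.3-WT, against a counting error of 1.14%. The log2 fold change was -0.08 (SE 0.168, 95% interval -0.46 to 0.29), with an edgeR adjusted p of 0.963. It turned to 0.07 without fw2.3-WT replicate 1 (edgeR unadjusted p = 0.693, adjusted p = 0.935). Without fw2.3-WT replicate 2 it stood at -0.25 (edgeR unadjusted p = 0.108, adjusted p = 0.9996). With all pools the edgeR unadjusted p was 0.627.

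**Figure D2:**
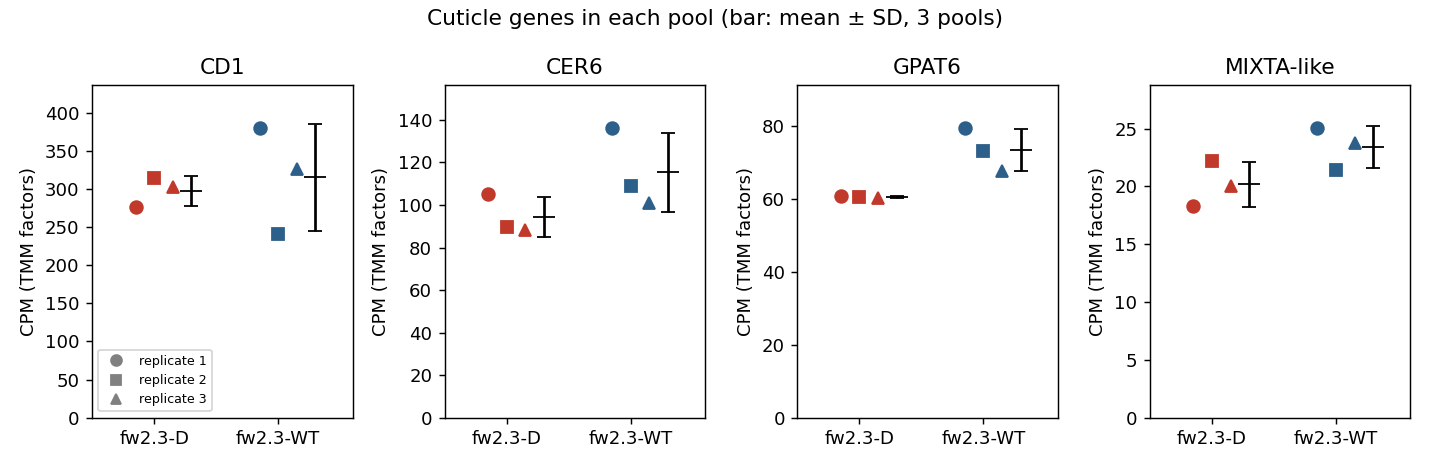
CPM with TMM factors of the 4 cuticle genes, 1 panel per gene, with fw2.3-D left of fw2.3-WT, 1 symbol per replicate and the mean ± SD of 3 pools beside them. The GPAT6 pools of fw2.3-D lie at 60.2 to 60.8 CPM, below all fw2.3-WT pools, while the CD1 pools of fw2.3-WT spread from 240.3 to 379 CPM around those of fw2.3-D.

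The intervals show how wide a difference the fit leaves for each gene, without adjustment for the number of genes tested. As ratios of fw2.3-D to fw2.3-WT, the 95% intervals ran from 0.697 to 0.976 for GPAT6, from 0.657 to 1.02 for CER6, from 0.703 to 1.06 for MIXTA-like and from 0.727 to 1.22 for CD1. Depth was not the main limit, because the spread between pools was larger than the counting error in every gene and genotype except GPAT6 in fw2.3-D. The genes differed in how much pools of one genotype varied. The pooled SD of log2 CPM within genotypes was 0.25 for CD1, 0.19 for CER6, 0.13 for MIXTA-like and 0.08 for GPAT6. The median over tested genes was 0.21, and 5.89% of them varied less than GPAT6.

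One pool stood out for these genes. All 4 had their highest value in fw2.3-WT replicate 1, where 11.5% of all tested genes had theirs. For MIXTA-like the gap to fw2.3-WT replicate 3 was narrow, at 25.02 against 23.7 CPM with a counting error of 4.28%. By deposited RPKM it was 15.97 against 15.93. Deviations from each gene's own mean of log2 CPM over the 6 pools were 0.39 for CER6, 0.32 for CD1, 0.25 for GPAT6 and 0.21 for MIXTA-like in that pool. In fw2.3-D replicate 1 the genes went different ways, at 0.02 for CER6, -0.14 for CD1, -0.13 for GPAT6 and -0.24 for MIXTA-like. In fw2.3-WT replicate 2, CD1 was at -0.34, while MIXTA-like stood at -0.02, GPAT6 at 0.14 and CER6 at 0.07.

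By CPM, CER6 and GPAT6 were highest in replicate 1 of both genotypes, which held for 17.9% of tested genes. For GPAT6 in fw2.3-D the gap was below the counting error, and by deposited RPKM replicate 1 was the lowest of these pools, at 30.9 RPKM against 32.1 and 31.9 RPKM. The first pools of the genotypes were also the closest of all pairs of pools, with a chi-square per gene of 14.01, and they differed from the others in the clock genes. One of 3 clock genes, Solyc10g005080.3, had 22.1 RPKM in fw2.3-D replicate 1 and 19.5 RPKM in fw2.3-WT replicate 1, against 9.73 to 10.9 RPKM in the other pools. The other clock genes were lower in these pools, and the summed level of the 3 was 55.6, 68.3 and 89.2 RPKM in fw2.3-D replicates 1, 2 and 3, and 57.2, 109.7 and 91.4 RPKM in fw2.3-WT replicates 1, 2 and 3. The part of collection time in the values was not tested, and the labels used here give no times. With replicate 1 of both genotypes left out, the log2 fold change was -0.24 for CER6, -0.23 for GPAT6, -0.10 for MIXTA-like and 0.12 for CD1.

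**Figure D3:**
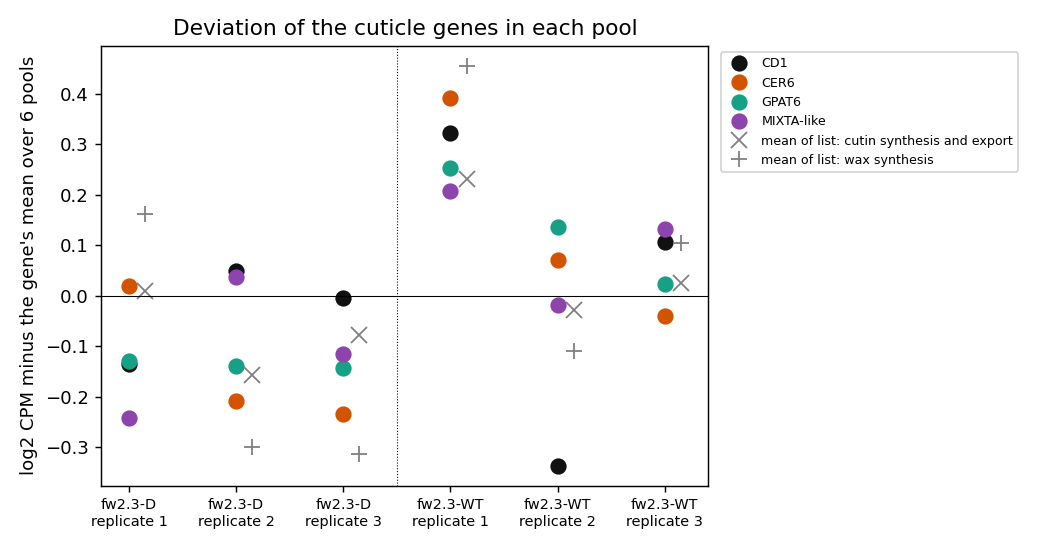
Log2 CPM of each cuticle gene minus its own mean over the 6 pools, by pool, fw2.3-D left of the dotted line and fw2.3-WT right of it; crosses and plus signs are the mean deviation of the lists of other cutin and wax genes. All 4 genes lie above 0.2 in fw2.3-WT replicate 1, and CD1 lies at -0.34 in fw2.3-WT replicate 2.

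Pool by pool, CER6 and GPAT6 were the most alike pair. Likeness was measured as Pearson's r of log2 CPM over the same 6 pools, which carry the genotype difference and shared library effects, and is given as a description. For CER6 and GPAT6 r was 0.88, and 121 of the other 20941 tested genes were more like GPAT6 than CER6 was. MIXTA-like and GPAT6 had an r of 0.70, and MIXTA-like and CD1 had 0.67. CD1 was less like the other enzymes, with 0.34 for CER6 and 0.27 for GPAT6. With only 6 pools, high values are common: 122 genes reached an r of 0.9 with CD1, 106 with CER6, 86 with GPAT6 and 68 with MIXTA-like.

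The tested genes most like each cuticle gene have no name in the files. For CD1 they were Solyc03g026160.4 (r = 0.99, mean 0.753 CPM) and Solyc02g030480.4 (r = 0.98, mean 32.2 CPM). For CER6 they were Solyc11g020640.3 (r = 0.99, mean 1.91 CPM) and Solyc09g011840.1 (r = 0.99, mean 106 CPM). For GPAT6 they were Solyc08g015837.1 (r = 1.00, mean 1.67 CPM) and Solyc10g076515.1 (r = 1.00, mean 1.33 CPM). For MIXTA-like they were Solyc04g072040.1 (r = 0.99, mean 7.68 CPM) and Solyc07g054280.1 (r = 0.99, mean 19.7 CPM). Several of these have few counts. None of the 8 was called between the genotypes by edgeR, with adjusted p from 0.948 to 0.956, and 0 of them is another cuticle gene of this set.

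Other genes of the cuticle pathway were described from 3 lists of locus numbers, recalled from published assignments and not checked here. These genes are given without names, because no source used here pairs them. None was called by edgeR in either direction: 0 of 8 for cutin synthesis and export, 0 of 5 tested of 6 for wax synthesis and 0 of 5 for regulators of the cuticle. Over all tested genes 0.0239% were called. At an unadjusted p under 0.05 there were 2 of these 18, against 3.56% of tested genes. DESeq2 called 0 of the 18, against 0.229% of all genes, and limma on log2(RPKM + 1) called 0, as it did of all 20936 genes it tested. The cutin list had 7 of 8 fold changes below 0, with a median of -0.17 on the log2 scale, from -0.27 to 0.00. The wax list had 5 of 5 below 0, with a median of -0.39, from -0.56 to -0.01. The regulators had 4 of 5 below 0, with a median of -0.21, from -0.34 to 0.08. Over all tested genes the median was 0.00.

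Across the 18 genes, 16 fold changes were below 0, and in 6 no fw2.3-D pool overlapped the fw2.3-WT pools, all 6 lower in fw2.3-D, against 4.34% of tested genes. Genes of one pathway that share pools are not replicates, so these counts describe these 6 pools. They also leaned on 1 pool. Without fw2.3-WT replicate 1, 12 of the 18 were below 0 and the median moved to -0.11, against -0.21 with all pools. With replicate 1 of both genotypes left out, 14 of the 18 were below 0, with a median of -0.18.

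By their single highest pool, most enzymes of the lists went with CD1, CER6 and GPAT6, and most regulators did not. In the cutin list 7 of 8 genes, and in the wax list 4 of 5, were highest in fw2.3-WT replicate 1, against 1 of 5 regulators. By mean deviation of log2 CPM, however, the regulators were also highest in fw2.3-WT replicate 1, at 0.094 against 0.089 in fw2.3-WT replicate 2. MIXTA-like was highest in fw2.3-WT replicate 1 only by a narrow gap. A difference between enzymes and regulators was not tested. The summed level of the cutin list was 551, 498 and 519 RPKM in the 3 pools with fw2.3-D. In the 3 pools with fw2.3-WT it was 644, 559 and 596 RPKM, with no overlap. These sums carry no TMM factors. By mean deviation of log2 CPM, which has them, the list overlapped. It stood at 0.009 in fw2.3-D replicate 1, above -0.029 in fw2.3-WT replicate 2. Without the most abundant gene of the list, Solyc03g025320.4, the summed RPKM overlapped too. The sums were then 362, 328 and 335 RPKM in the 3 pools with fw2.3-D and 414, 345 and 375 RPKM in the 3 pools with fw2.3-WT. The wax list summed to 167, 128 and 118 RPKM in the 3 pools with fw2.3-D and 189.7, 129 and 148 RPKM in the 3 pools with fw2.3-WT, which overlapped. Like CER6, it was highest in replicate 1 of each genotype. The regulators summed to 58.3, 59.6 and 63.1 RPKM in the 3 pools with fw2.3-D. With fw2.3-WT they summed to 66.7, 71.1 and 70.2 RPKM, with no overlap. Their most abundant gene, Solyc01g091630.3, had up to 43.6 RPKM. By mean deviation of log2 CPM the regulators did not overlap either. They ran from -0.119 to -0.013 in pools with fw2.3-D and from 0.040 to 0.094 in pools with fw2.3-WT. The flower identity genes, for comparison, had 4 of 8 fold changes below 0, with a median of -0.04. The tested trichome markers had 2 of 2 below 0, with a median of -0.16, and edgeR called 0 of them.

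**Figure D4:**
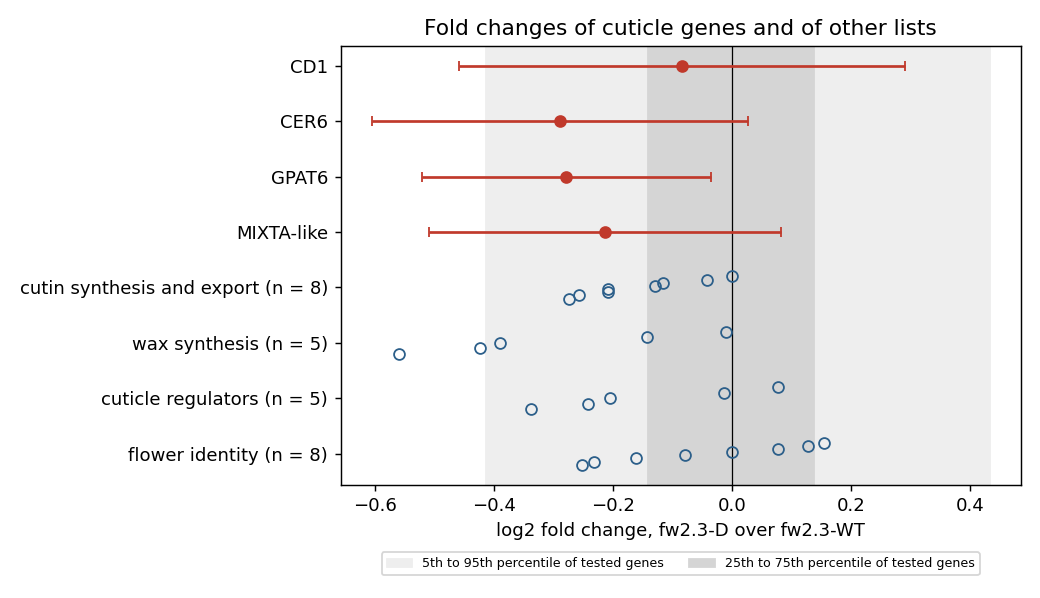
Log2 fold changes of fw2.3-D over fw2.3-WT: the 4 cuticle genes with 95% intervals, and open circles for each tested gene of the lists; the bands are percentiles of all tested genes. The interval of GPAT6, -0.52 to -0.04, is the only one of the 4 that leaves out 0, and it is not adjusted for the number of genes tested; 16 of the 18 listed cutin, wax and regulator genes lie below 0.

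CER6 and MIXTA-like lie on chromosome 2, the chromosome for which fw2.3 is named. In identifier order, 393 tested loci separate CER6, and 211 separate MIXTA-like, from Solyc02g090750. This locus has 5 rows, of which edgeR called 1, as lower in fw2.3-D. Where it lies relative to fw2.3 is not given here, so these counts are not distances from fw2.3. Of the 10 tested genes flanking CER6, 5 had a fold change below 0 (median log2 fold change 0.00), and of the 10 flanking MIXTA-like, 3 did (median 0.09). None of these flanking genes was called by edgeR.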

How the data were processed

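Per the labels' protocols, libraries were made from polyadenylated RNA without strand, so reads of genes that overlap on opposite strands are mixed. The authors used Cutadapt, STAR and edgeR, per the submitters' processing notes, which give no versions; how reads were counted is not given in the sources used here. Deposited counts are whole numbers of reads for each gene, and the deposited RPKM table holds values that the authors scaled to gene length and total counts. Dividing counts by RPKM gave lengths of 1437 (CD1), 2199 (CER6), 1897 (GPAT6) and 1542 (MIXTA-like) bases in every pool.

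Genes were tested over the whole table with edgeR 4.0.16 in R 4.3.3 (glmQLFTest, two-sided, TMM, filterByExpr with a minimum count of 10, genotype as the single term), with Benjamini-Hochberg adjustment and a threshold of 0.05. SE is the log2 fold change over the root of F. The procedure was tested on simulated data. Counting error is 1 over the root of the mean count and covers counting alone; a count of 0 would allow up to 0.105 to 0.135 CPM (3 counts). No pools agreed within sampling noise: chi-square per gene was 14.01 to 55.2 between pairs. Likeness used log2 CPM with a prior count of 2.

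Each choice was varied in turn: DESeq2 1.42.0, factors by RLE, no filter, 1 CPM in 3 pools, the replicate block, a robust fit, pools left out, and limma 3.58.1 on log2(RPKM + 1) and log2(RPKM + 0.1). Library totals without TMM, and a term for replicate 1, were added after seeing the data. Column names gave the pool of every value column. Named genes are the members, called list genes, and the 2 genes most like each member. Members and lists were chosen with earlier results of these data known. List assignments rest on published locus numbers as recalled, which could not be checked here.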

Additional observations from a re-analysis of the deposited data

How the results depend on the processing

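No cuticle gene was called under any of the 17 alternatives, and of 68 values 66 kept their direction. The exceptions were CD1 without fw2.3-WT replicate 1 (log2 fold change 0.069) and with replicate 1 of both genotypes left out (0.12), where the cause was not tested. With each pool left out, the log2 fold change ran from -0.25 to 0.07 for CD1, from -0.38 to -0.15 for CER6, from -0.34 to -0.22 for GPAT6 and from -0.29 to -0.15 for MIXTA-like. Over all alternatives the adjusted p ran from 0.896 to 0.9999 for CD1 and from 0.700 to 0.9999 for CER6. For GPAT6 it ran from 0.679 to 0.9999 and for MIXTA-like from 0.723 to 0.9999. The unadjusted p over these edgeR, DESeq2 and limma fits ran from 0.108 to 0.860 for CD1 and from 0.0228 to 0.311 for CER6. For GPAT6 the unadjusted p ran from 0.0177 to 0.172 and for MIXTA-like from 0.0749 to 0.576. With the replicate block the values were -0.06 for CD1, -0.28 for CER6, -0.27 for GPAT6 and -0.21 for MIXTA-like, and the block changed no call among them. Replicate number was no pairing across the board: pools with number 1 had deviations that correlated at 0.36, the highest of the 9 values between genotypes, and numbers 2 and 3 gave -0.09 and 0.06.

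The number of called genes, 5 of 20942, became 10 under the replicate block, 13 with no filter, 13 with a term for replicate 1, 21 when replicate 1 of both genotypes was left out and 48 in DESeq2. In limma it was 0 with a pseudocount of 1 and 0 with one of 0.1 (774 and 746 at an unadjusted p under 0.05). Leaving out single pools gave 0 to 18. The scalings moved the median log2 fold change of all genes by under 0.1.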
